A study of Mus musculus with 6 samples.

Results

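Oxidative phosphorylation is the last stage of respiration in mitochondria. Electrons from NADH and succinate pass through complexes I and II to ubiquinone, then through complex III and cytochrome c to complex IV, where oxygen is reduced, and the proton gradient built on the way drives the ATP synthase, complex V. Most subunits are encoded in the nucleus and a few in mitochondrial DNA, and several subunits of complex IV exist in forms used mainly in muscle, lung or testis. The genes described here are all mm10 protein-coding genes whose symbol starts with Nduf, Uqcr, Cox4, Cox5, Cox6, Cox7, Cox8 or Atp5, plus Sdha, Sdhb, Sdhc, Sdhd and Cyc1. This rule gave 97 of the 21883 protein-coding genes on the autosomes, X and Y: 47 of complex I, 4 of complex II, 9 of complex III, 20 of complex IV and 17 of complex V. The 8 Ndufaf genes encode assembly factors of complex I and no subunits, and Ndufa4 and its paralogue Ndufa4l2 were placed with complex IV, of which the NDUFA4 protein is a subunit.

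The cells were splenic immature B cells, sorted as B220+CD93+, and their open chromatin was mapped by ATAC-seq, which uses a transposase (Tn5) to place sequencing adapters where DNA is accessible. All 6 libraries came from the Tcrd-GDL strain, whose γδ T cells carry a diphtheria toxin receptor. The 3 untreated libraries came from mice that received no toxin. The 3 DTx libraries came from mice given diphtheria toxin as 2 intraperitoneal doses of 15 ng per gram 48 h apart and analysed on day 8, so that an effect of the toxin itself cannot be told apart from the loss of γδ T cells. Age, sex and the number of mice behind a library were not given in the sources used here, and the spread between libraries may be technical. Each library is represented by its own list of called peaks, of 36760, 42504 and 56503 peaks in untreated replicates 1, 2 and 3 and 44661, 56266 and 60811 in DTx replicates 1, 2 and 3. The lists came in 2 layouts, narrow in untreated replicate 3 and DTx replicate 1 and broad in the other 4 lists. A gene was counted as called in a library when a peak lay within 1 kb of either end of the gene, and the strength of a peak is given as the percentile of its −log10 q within its own list, so that 100 is the strongest peak. Percentiles rank peaks within a list and are not compared between groups. Of 8 B cell markers, 7 were called in all 6 libraries, while Cd3e, Cd8a, Lyz2 and Gata1 were called in none. A called peak does not tell how many of the sorted cells were open there.

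Open chromatin lay at nearly all genes of the respiratory chain in both groups. A gene-end peak was called in all 6 libraries at 86 of the 97 genes (88.7%), where the background over all protein-coding genes was 49.2%, and 9 genes (background 40.9%) lacked one throughout. The peaks were strong as well: per library, the median percentile of the called genes lay between 87.4 and 92.3, against 78.3 to 85.2 over all genes called. Of the 86, 80 stood at or above the 50th percentile and 30 at or above the 90th in every library. Complex I had 44 of 47 genes called in all libraries, complex II 4 of 4, complex III 9 of 9, complex IV 13 of 20 and complex V 16 of 17. The order of the 86 genes was alike in every library, with Spearman's rho between 0.864 and 0.967 for the 15 pairs of libraries. These correlations are across genes that share libraries and are a description only.

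**Figure D1:**
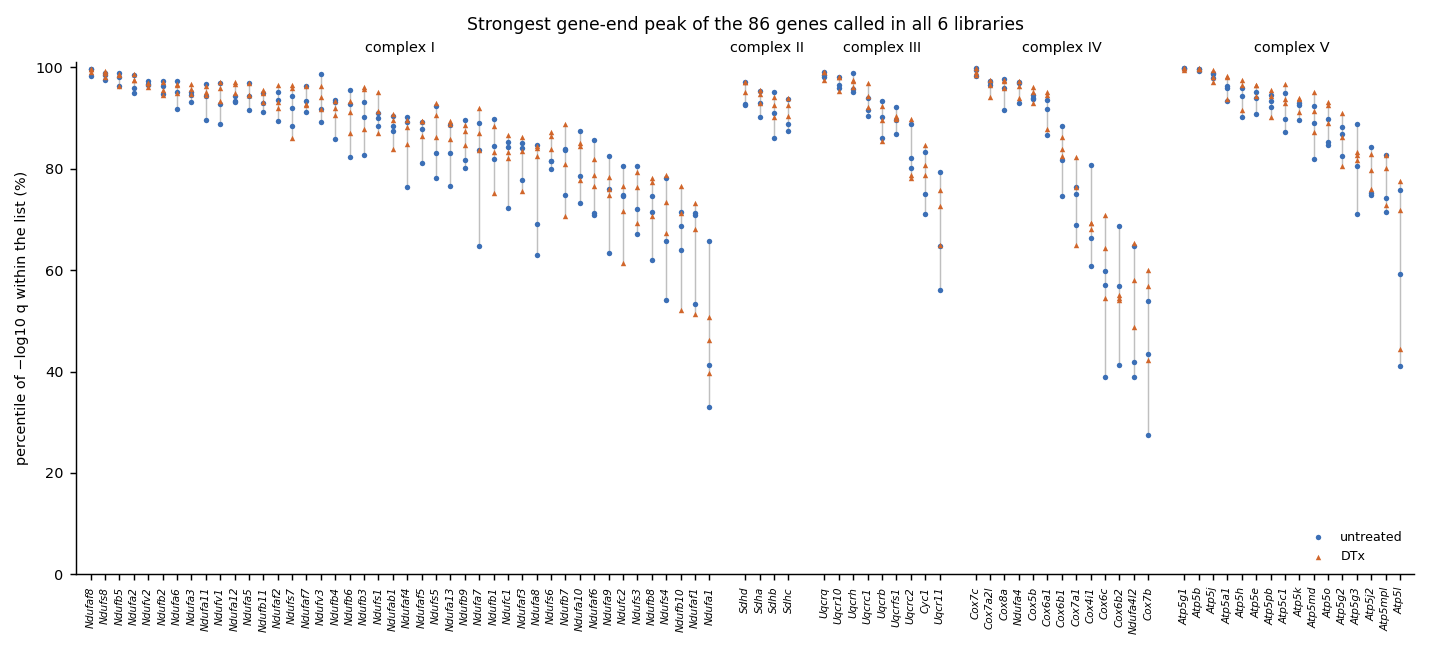
Percentile of −log10 q of the strongest gene-end peak (vertical axis, within each list) for the 86 genes called in all 6 libraries, grouped by complex and ordered by median. Circles are the 3 untreated and triangles the 3 DTx libraries, and grey lines join the lowest and highest. By median, all of complex II and most of complexes I, III and V lie above the 80th percentile, and complex IV holds a tail of weaker peaks down to Cox7b.

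The strongest peaks belonged to genes of complexes I, III, IV and V. Atp5g1, which encodes the c subunit of the rotating ring of the ATP synthase, stood at the 99.8th, 99.9th and 99.9th percentile in untreated replicates 1, 2 and 3 and at the 99.5th in DTx replicate 1 and above the 99.9th in DTx replicates 2 and 3. Atp5b, for the catalytic β subunit, stood at 99.3, 99.6 and 99.7 untreated and 99.6, 99.9 and 99.6 DTx. Both were thus within the top 1% of every list. Cox7c of complex IV followed at 98.4 or above, the complex I assembly factor gene Ndufaf8 at 98.3 or above, Ndufs8, an iron-sulphur subunit of the complex I core, at 97.6 or above, and Uqcrq of complex III at 97.6 or above. The other genes for the same c subunit were weaker. Atp5g2 lay between 80.6 and 91.1 and Atp5g3 between 71.1 and 88.8, and neither overlapped the range of Atp5g1.

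The weakest peaks among the genes called throughout also included widely used subunits. Cox7b, an X-linked gene of a small complex IV subunit, stood at 43.6, 27.4 and 53.8 untreated and 42.2, 60.1 and 56.9 DTx, with the lowest single value of the 86. Ndufa1, an X-linked gene of a membrane subunit of complex I, stood at 41.3, 33.1 and 65.7 untreated and 46.3, 50.8 and 39.8 DTx. By the median over the 6 libraries Ndufa1 was the lowest of the 86, at 43.8, and Cox7b followed at 48.7. Cox6c of complex IV ranged from 38.8 to 70.8 and Atp5l, for the g subunit of the membrane part of complex V, from 41.0 to 77.6.

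Complex II, which is also succinate dehydrogenase of the citric acid cycle, was open at all its genes. Sdha, for the flavoprotein subunit, ranged from 90.2 to 95.5, Sdhb, for the iron-sulphur subunit, from 86.1 to 95.2, and the membrane anchors Sdhc and Sdhd from 87.5 to 94.0 and from 92.5 to 97.1. In complex III, Cyc1, the gene of cytochrome c1, ranged from 71.1 to 84.8 and Uqcrfs1, for the Rieske iron-sulphur protein, from 86.9 to 92.3. Within complex I, the genes called in all libraries included 30 of 30 accessory subunits and 8 of 8 assembly factors. Across libraries the median percentile of the called core genes was 89.4 to 96.8, that of accessory subunits 82.3 to 89.7 and that of assembly factors 82.6 to 89.7. In complex V the F1 genes had medians of 93.6 to 97.3 and the genes of the membrane part and stalk 86.8 to 93.3.

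Genes not called throughout were of 2 kinds. The first were tissue forms and copies: Cox4i2 (lung), Cox6a2 and Cox8b (heart and skeletal muscle), Cox7b2 and Cox8c (testis), and Ndufb4b and Ndufb4c, gene copies related to Ndufb4, were called in 0 of 6 libraries. The second were widely used genes, among them Cox7a2, Cox5a and Atp5d. Cox7a2, for a complex IV subunit, and Atp5d, for the δ subunit of the ATP synthase, were called in 0 of 6 libraries. Cox5a, for a complex IV subunit, was called in 1 of 3 libraries of each group (36.9 in untreated replicate 3 and 52.7 in DTx replicate 3).

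Cox7a2, Cox5a and Atp5d held a strong or middling peak further inside the annotated gene in every library. In Cox7a2 (chromosome 9, 79755241 to 79771422) it lay between 79759400 and 79760401, more than 4 kb from either end, at 95.0, 92.1 and 93.2 in untreated and 94.1, 94.0 and 93.1 in DTx replicates 1, 2 and 3. The RefSeq promoter table places the start of Cox7a2 at 79759853, under this peak in 6 of 6 libraries. In Cox5a (chromosome 9, 57517328 to 57532427) the peak reached from 57520867 to 57521824 at most, covered the table's start at 57521232 in 6 of 6 libraries and stood at 60.2, 71.7 and 76.4 untreated and 65.5, 68.1 and 70.9 DTx. The gene table's spans at these genes include predicted transcripts that reach beyond these starts. In Atp5d (chromosome 10, 80138698 to 80145828) the start at 80142275 was covered in 6 of 6 libraries, although the broad lists joined there what the narrow lists gave as 2 peaks. The strongest peak inside the gene stood between 81.4 and 90.5. With peaks in the body of the gene counted too, a criterion chosen after seeing the data, 91 of 97 genes were called in all 6 libraries (all protein-coding genes 58.9%). The 6 others were Cox6a2, Cox8b, Cox8c, Ndufb4b and Ndufb4c, with no peak in any library, and Cox7b2, with a weak one in 2 libraries.

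The starts themselves were known for 78 of the 97 genes. A peak covered the start in all 6 libraries at 74 of them (94.9%), where the background over the 17491 genes of the promoter table was 46.3%. Ndufa13 missed 1 library, and Cox7b2, Cox8b and Ndufb4b were covered in none. At the 74 starts the peak reached a median of 416 bp upstream and 384 bp downstream, against 417 bp and 424 bp over all starts covered throughout. The peak reached further downstream than upstream at 43.2% of the 74 and at 51.0% of all such starts. Peaks were thus centred on the starts and of ordinary reach. At 1 kb upstream, between 2.56% and 7.69% of the genes still had a peak, against 3.11% to 5.03% of all genes of the promoter table. At 1 kb downstream the share was 1.28% to 3.85%, against 3.83% to 7.44%.

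**Figure D2:**
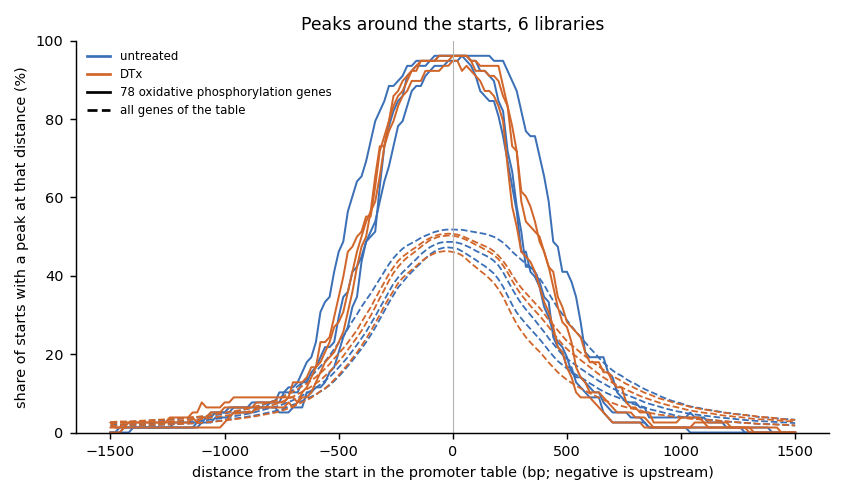
Share of starts (vertical axis, %) that have a called peak at each distance from the start (horizontal axis, bp), for the 78 oxidative phosphorylation genes with a known start (solid) and all genes of the promoter table (dashed). Each line is 1 library. The solid lines reach 94.9% to 96.2% near the start and the dashed ones 46.3% to 51.8%.

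Tissue forms of complex IV subunits, used mainly outside lymphocytes, were set beside their widely expressed counterparts. Of 8 such forms, 3 (37.5%, background 49.2%) were called in all 6 libraries and 5 (background 40.9%) in 0. With only 8 genes, these shares are a description. The sequence before the start is shown for a pair in which the widely used gene was open and the muscle gene was not, and for a pair in which the muscle gene was called. Each stretch holds the 200 bases before the start, read 5′ to 3′ along the gene, from RefSeq on GRCm38.p6, the assembly behind mm10. Capitals mark matches, on either strand, to the motifs described further on. Cox8a lies on the minus strand (chr19:7217617-7217816), Cox8b on the minus strand (chr7:140900447-140900646), Cox7a2 on the minus strand (chr9:79759854-79760053) and Cox7a1 on the plus strand (chr7:30183971-30184170).
Cox8a: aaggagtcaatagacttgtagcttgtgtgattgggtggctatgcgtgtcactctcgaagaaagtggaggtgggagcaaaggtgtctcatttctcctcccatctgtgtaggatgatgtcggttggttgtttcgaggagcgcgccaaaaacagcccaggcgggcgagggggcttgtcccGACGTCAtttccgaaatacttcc
Cox8b: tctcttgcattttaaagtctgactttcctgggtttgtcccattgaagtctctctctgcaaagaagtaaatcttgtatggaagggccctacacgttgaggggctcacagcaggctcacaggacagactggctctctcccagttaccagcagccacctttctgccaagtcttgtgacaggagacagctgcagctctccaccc
Cox7a2: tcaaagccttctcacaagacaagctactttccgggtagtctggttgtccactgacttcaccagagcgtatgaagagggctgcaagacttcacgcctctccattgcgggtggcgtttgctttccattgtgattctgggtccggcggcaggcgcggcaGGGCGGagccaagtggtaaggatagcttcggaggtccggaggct
Cox7a1: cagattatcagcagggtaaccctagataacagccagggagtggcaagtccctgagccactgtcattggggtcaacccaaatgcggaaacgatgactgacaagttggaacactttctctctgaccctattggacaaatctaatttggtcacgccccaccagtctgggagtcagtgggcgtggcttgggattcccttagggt

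Cox8a and Cox8b encode the widely used and the muscle form of the smallest complex IV subunits. The Cox8a stretch was entirely within a peak in 6 of 6 libraries and has 11 CpG dinucleotides. Its peak stood at 91.7, 95.9 and 97.6 untreated and 95.9, 97.4 and 97.4 DTx. The Cox8b stretch, with 1 CpG and no motif match in these 200 bases, touched no peak in any library, and the nearest peak lay between 2.76 and 8.21 kb from the gene. The testis form Cox8c had its nearest peak 10.3 to 20.5 kb away.

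Cox7a1, the heart and skeletal muscle form, was the exception among the muscle genes. A short peak covered its start in 6 of 6 libraries, at 69.0, 76.3 and 74.99 untreated and 65.0, 76.3 and 82.3 DTx, with lengths of 339, 394 and 592 bp untreated and 410, 411 and 463 bp DTx. No other gene end lay within 1 kb of it, and the stretch before the start has 4 CpG, against 12 for Cox7a2. The Cox7a2 peak was at the 92.1st percentile or above in every library. Cox7a1 peaks were weaker than that in all 6 libraries.

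The other 2 called tissue forms shared their peak with a neighbour. Cox6b2, a testis form, stood between 41.3 and 68.7 with a peak that covered its start and lay within 1 kb of an end of Fam71e2. Ndufa4l2, a hypoxia-inducible paralogue of Ndufa4, stood between 38.8 and 65.3 with a peak within 1 kb of an end of the muscle gene Stac3. Both counterparts were stronger in every library, with Cox6b1 between 74.6 and 88.5 and Ndufa4 between 93.1 and 97.4. The Ndufa4 peak was shared as well, since it also covered the start of Phf14 in 6 of 6 libraries. Cox6a1, the counterpart of the uncalled Cox6a2, ranged from 86.6 to 95.2 and Cox4i1, that of Cox4i2, from 60.8 to 80.7. Ends of Emc8 and Gm27021 lay within 1 kb of the Cox4i1 peak in at least some libraries. Cox4i2 had a peak 1.36 to 1.46 kb beyond its upper end in all 6 libraries, just outside the limit. Inside the gene it held a further peak in all 6, at percentiles 30.7 to 68.0 and 2.14 to 2.43 kb from the lower end. The promoter table has no start for Cox4i2, so whether this peak lies at its start is not known. Cox6a2 had a peak 1.79 to 1.90 kb away in 5 of 6. Of 9 markers of striated muscle, 3 (Ckm, Tnni3 and Myod1) were called in all 6 libraries and 6 in none, at percentiles from 9.49 to 83.8. Of 7 testis and germ cell markers, Dazl was called in all 6 and the others in none.

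**Figure D3:**
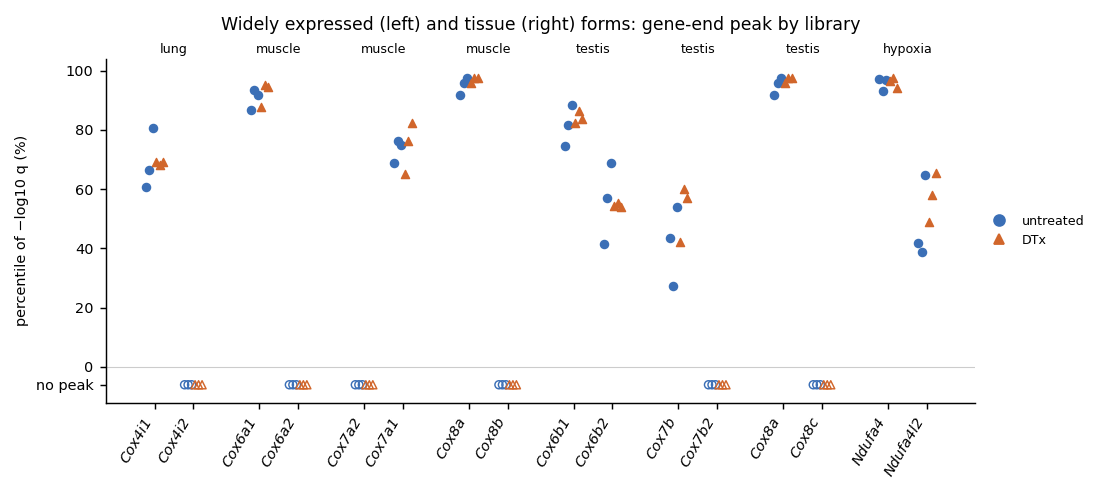
Percentile of −log10 q of the gene-end peak (vertical axis) in each library for 8 pairs, the widely expressed gene at left and its tissue or hypoxia form at right. Open symbols on the line "no peak" mark libraries without a gene-end peak. Of the 8 forms at right, 5 lie on that line in every library, as does the widely expressed Cox7a2, whose peak lies at a start inside the annotated gene.

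Many of the genes sat head to head with another gene, with both starts under one peak. Of the 78 genes with a known start, 23 (29.5%) had the start of a protein-coding gene on the opposite strand, transcribed away from it, at most 1 kb upstream (an overlap of up to 100 bp was allowed). The share over all 17491 genes was 8.66%. Among starts under a peak in all 6 libraries it was 22 of 74 (29.7%) against 16.8%. In 21 of the 23 pairs a single peak covered both starts in every library, and the exceptions were Ndufa5 with Asb15 and Ndufa13 with Tssk6. The same count was not made for the pairs of all genes, so whether it differs there is not known. At these pairs the peak cannot be assigned to either gene.

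Some partners are themselves genes of mitochondria. Atp5j, for the coupling factor 6 subunit of the ATP synthase, starts 148 bp from Gabpa, the DNA-binding subunit of an ETS factor known to bind promoters of respiratory genes. Sdhd starts 52 bp from Timm8b, an import chaperone of the intermembrane space, and Ndufb5 308 bp from the mitochondrial ribosomal protein gene Mrpl47. The strips between the starts are shown for Atp5j and Sdhd and for the pairs at Sdha of complex II and Uqcrh of complex III, because these bases lay under the shared peak in 6 of 6 libraries. They are read along the first gene, all on the minus strand: chr16:84834977-84835123, chr9:50603850-50603900, chr13:74350241-74350316 and chr4:116075071-116075268.
Atp5j to Gabpa: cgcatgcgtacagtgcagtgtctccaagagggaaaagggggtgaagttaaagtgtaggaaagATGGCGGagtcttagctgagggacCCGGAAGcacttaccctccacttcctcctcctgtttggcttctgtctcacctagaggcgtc
Sdhd to Timm8b: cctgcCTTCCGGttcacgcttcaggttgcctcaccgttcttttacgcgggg
Sdha to Ccdc127: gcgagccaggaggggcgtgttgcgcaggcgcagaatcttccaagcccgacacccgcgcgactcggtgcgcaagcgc
Uqcrh to Lrrc41: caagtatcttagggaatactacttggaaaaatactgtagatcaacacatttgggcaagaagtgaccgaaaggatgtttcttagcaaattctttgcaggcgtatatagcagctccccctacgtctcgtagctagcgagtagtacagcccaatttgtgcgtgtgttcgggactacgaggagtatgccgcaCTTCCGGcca

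The Atp5j and Gabpa strip holds matches to the YY1 and the ETS motif, the Sdhd and Uqcrh strips 1 ETS match each and the Sdha strip none of the motifs. The peak at Atp5j stood at 98.8, 98.0 and 98.9 untreated and 99.4, 98.2 and 97.1 DTx, and Gabpa was called through it, between 97.1 and 99.4.

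The promoter windows of 300 bases, from 250 before to 50 after the start, were searched for short motifs on both strands. Each gene entered with a single window, at its first listed start. For Atp5j that start is 84835625 and not the one facing Gabpa, so the matches in the strip above were not counted. NRF1, GABP and YY1 are known regulators of nuclear genes for respiration. The NRF1 letters GCGCATG were found in 20.3% of the 74 windows whose start was open in all libraries, against 8.30% of the 8104 open windows of all genes and 4.88% of all windows. The ETS letters CCGGAAG were in 24.3%, against 21.9% and 11.9%, and the YY1 letters ATGGCGG in 14.9%, against 9.75% and 5.41%. The share was thus above that of other open windows for NRF1 and YY1, and close to it for ETS. GGGCGG of SP and KLF factors was in 44.6%, below the 68.1% of open windows of all genes. The CREB or ATF letters TGACGTC were in 9.46% of the open windows of these genes, against 6.60% of those of all genes. The E-box CACGTG was in 8.11% against 11.2% of them. The NF-Y letters ACCAAT were in 14.9% against 14.8%, nearly the same share. The TATA box letters TATAAA were in 8.11% against 6.49%. Matches to different motifs could overlap and were counted separately. The median window held 6.67 CpG per 100 bases, against 7.33 for all open windows and 4.33 for all windows.

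Motifs were spread unevenly over the complexes. Of the 11 windows with the YY1 letters, 10 were of complex I, of its 41 windows, among them Ndufs4, Ndufs6, Ndufs7, Ndufa5 and Ndufb5, and the other was Atp5b. NRF1 and ETS letters stood together in 6 windows (7.69% of 78, against 0.880% of all windows): Ndufb6, Sdhb, Uqcr11, Cox6a1, Atp5k and Atp5l. Among open windows the share was 8.11% of the 74, against 1.72% of the 8104 of all genes. None of the 4 tissue forms with a window held NRF1, ETS or YY1 letters. The median of the lowest percentile was 82.3 in genes with and 86.4 in genes without the NRF1 letters, 86.4 against 85.9 for ETS and 85.99 against 86.004 for YY1. The gap was wider for the NF-Y letters (71.1 in 11 called genes with them against 86.1), the TATA box (76.3 in 6 against 86.6) and the E-box (79.96 in 6 against 85.99). It was 86.1 against 85.3 for SP or KLF and 89.7 in 7 against 85.2 for CREB or ATF. These are descriptions of few genes, with no test. Each percentile is of the strongest peak at either gene end, which need not lie over the window. The median of 82.3 with the NRF1 letters is the value of Ndufb6, whose strongest peak there lay at its other end. Cox7b, with the lowest single percentile of the genes called throughout, had 1.67 CpG per 100 bases and, of the 8 motifs, the NF-Y letters alone.

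**Figure D4:**
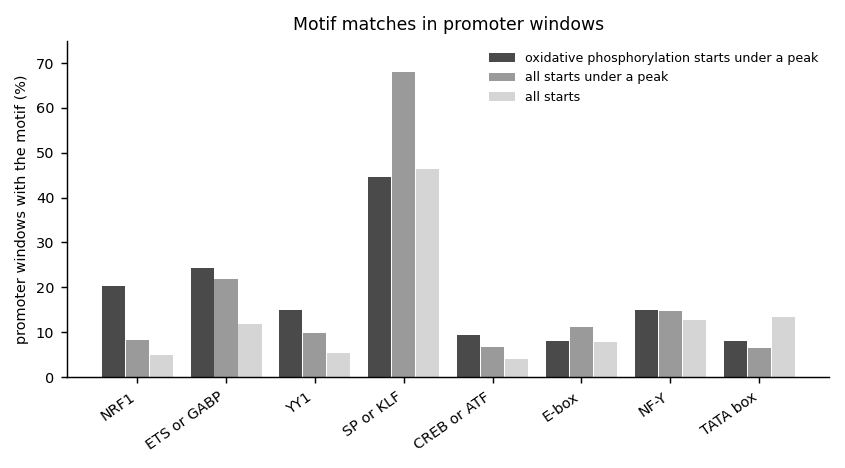
Share of promoter windows (vertical axis, %) that hold each motif on either strand, for the 74 oxidative phosphorylation starts under a peak in all 6 libraries (dark), the 8104 such starts of all genes (middle) and all 17491 starts (light). NRF1 letters are in 20.3%, 8.30% and 4.88%, and SP or KLF letters in 44.6%, 68.1% and 46.3%.

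The comparison of DTx with untreated mice asked whether accessibility at these genes differs once γδ T cells are targeted. The calls were nearly the same in both groups. Of the 97 genes, 86, 86 and 87 were called in untreated and 86, 86 and 88 in DTx replicates 1, 2 and 3, means of 86.3 ± 0.58 and 86.7 ± 1.15 (SD, n = 3 each). No gene was called in all libraries of one group and none of the other (background 0.0366% for DTx and 0.00457% for untreated). In all, 1 gene was called in more DTx than untreated libraries (background 5.02%) and 0 were called in more untreated libraries (background 2.36%). The difference of the means was 1 gene in the broad and -1 gene in the narrow lists.

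The length of the gene-end peaks was compared as well, as the log2 of their summed length, centred on the median of each library, with the list layout as a covariate. Limma called 0 of 10772 genes longer and 0 shorter in DTx at an adjusted p of 0.05 (background 0.0%), with 391 (3.63%) at an unadjusted p under 0.05. Among the 86 genes of respiration 2 had an unadjusted p under 0.05, Ndufa1 and Atp5b. The fitted differences ran from -0.37 to 0.66 with a median of -0.02, against 0.00 over all genes, and 37 were above and 49 below 0. In simulation on 10772 genes the fit recovered 28.5% of changes of 2-fold and 0% of changes of 1.5-fold, so smaller differences were not detectable.

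Ndufa1 had the lowest unadjusted p of the 86. Its peaks measured 390, 609 and 1080 bp in untreated and 1272, 851 and 921 bp in DTx replicates 1, 2 and 3. The groups overlapped, since untreated replicate 3 was longer than DTx replicates 2 and 3. The fitted log2 difference was 0.66 ± 0.16 (SE), with limma's adjusted p = 1.00. Ndufa1 starts 16 bp from Rnf113a1, on the opposite strand, under the same peak.

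Atp5b had the longest gene-end peaks, of 3502, 3453 and 3790 bp untreated and 1613, 3460 and 3715 bp DTx. Only DTx replicate 1 was short. The peak at the start of Atp5b measured 548 to 914 bp, and the rest was a second peak beyond the other end of the gene, within 1 kb of an end of Baz2a, of 1065 bp in DTx replicate 1 and 2829 to 3003 bp in the other 5 libraries. The fitted log2 difference was -0.37 ± 0.14 (SE; limma's adjusted p = 1.00). Without DTx replicate 1 it was -0.18, and without untreated replicate 3, the other narrow list, also -0.18. These are not separate checks. With the layout as a covariate, a single remaining narrow list adds nothing to the group difference, so both estimates rest on the broad lists alone.

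By p, Ndufc1 and Uqcrc2 came next among the longer (0.27 ± 0.15 and 0.23 ± 0.13, log2 ± SE) and Ndufa4l2 and Atp5l among the shorter (-0.37 ± 0.18 and -0.28 ± 0.15), each at limma's adjusted p = 1.00. Without DTx replicate 1, the library in which the peaks of Ndufa4l2 (451 bp) and Atp5l (534 bp) were shortest, these differences were -0.13 for Ndufa4l2, -0.12 for Atp5l, 0.17 for Ndufc1 and 0.36 for Uqcrc2. Without untreated replicate 3 they were the same to 2 decimals, since that estimate too rests on the broad lists alone. Of the 86, 3 had all DTx libraries longer, after centring, than all untreated ones (background 3.34%) and 3 all shorter (background 3.7%), shares of 3.49% each and near the background. The other long peaks belonged to Ndufb6 (mean 2260 bp) and Ndufa13 (1683 bp), which had more than 1 gene-end peak, and to Atp5j (1568 bp) and Uqcrh (1446 bp). In Ndufb6 the strongest peak was in 5 of 6 libraries not at its start but at the other end, near Topors and Smim27. The shortest were those of Ndufb10 (371 bp), Cox7a1 (435 bp), Cox7b (462 bp), Cox5b (533 bp) and Atp5h (537 bp).

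**Figure D5:**
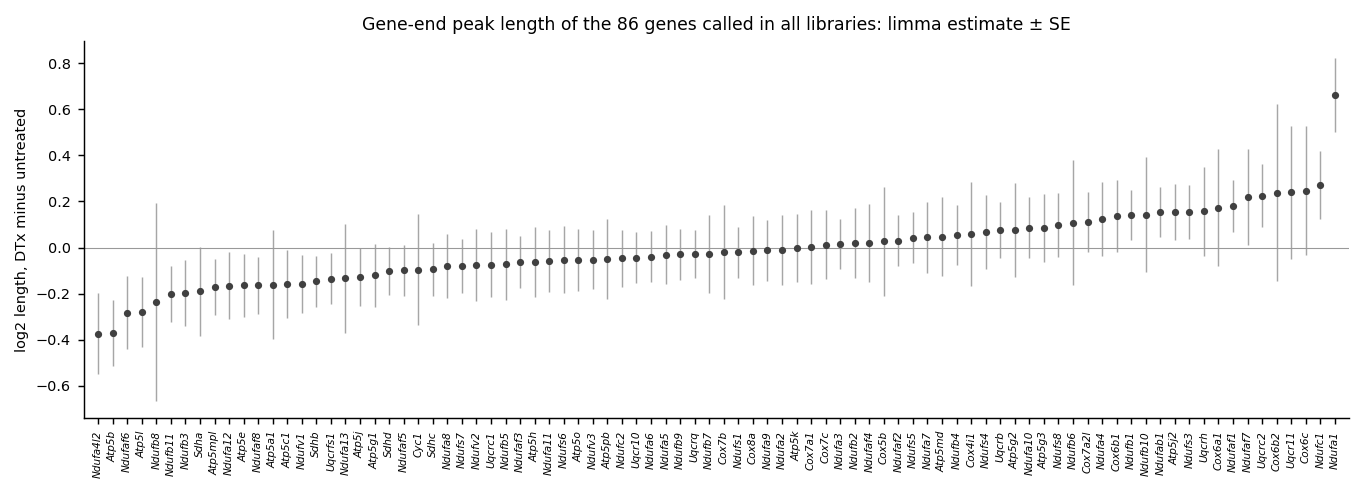
Difference in log2 summed length of the gene-end peaks, DTx minus untreated (vertical axis), for each of the 86 genes called in all libraries, as fitted by limma, with bars of 1 SE. Differences run from -0.37 to 0.66, and none passed the adjusted threshold.

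Other genes of the pathway were read from lists in the same way. The background over all protein-coding genes was 49.2% called in all 6 libraries. Of the assembly factors outside the symbol rule, those called in all libraries were 8 of 8 for complex I, 4 of 4 for complex II, 6 of 6 for complex III, 21 of 21 for complex IV and 2 of 3 for complex V, where Atpaf2 was called in none. Of 14 genes for mobile carriers and ubiquinone synthesis, 12 were called throughout. Cycs, for somatic cytochrome c, stood at 95.7 or above, while the testis form Cyct and the gene Pdss2 had no gene-end peak. Of 14 citric acid cycle genes 13 were called in all libraries, and Idh2, the mitochondrial NADP-dependent isocitrate dehydrogenase, in 1 untreated library only, at 2.22. Of 15 regulators 14 were called throughout and Gabpb1 in none. Among them Sp1 stood at 99.4 or above, Tfb1m at 98.9 or above and Esrra at 97.9 or above, while Ppargc1a, for the coactivator PGC-1α, was the weakest at 24.4 to 57.4. Across these 8 lists, Idh2 was the only gene called in different numbers of libraries of the 2 groups. Over all protein-coding genes, 5.02% were called in more DTx and 2.36% in more untreated libraries. Peaks inside the genes of these lists were not examined. An open start inside an annotated gene, as at Cox7a2, could therefore be missed at the uncalled ones.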

How the data were processed

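ATAC-seq peak lists of 6 libraries, 3 untreated and 3 DTx, were analysed. Trim Galore 0.4.3, Bowtie2 2.3.2 and MACS2 2.1.1 with mm10 are named in the submitters' processing notes. Read depth and the handling of duplicates and of the Tn5 shift were not given in the sources used here, and no interval that needs depth is given. Per the file headers, each deposited list gives a peak's length in bp, its pileup (read coverage signal) and its fold enrichment, a ratio over background. The −log10 p and −log10 q columns of the deposited lists have damaged headers and were identified by order and values. All are the authors' values, and −log10 q served to rank peaks within a list and, in 1 alternative, as a minimum. Peak lengths follow from the authors' calling mode and depth.

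Mitochondrial peaks (2 per list) did not enter. Genes came from RefSeq GRCm38.p6 and starts and promoters from its promoter table, which matched 78 of 97 genes. Summed lengths were fitted with limma 3.58.1 (R 4.3.3, trend, robust, Benjamini-Hochberg over 10772 genes), checked on simulated data. Counts over the genes got no p. Python 3.11.15, NumPy 2.4.6, pandas 2.3.3 and matplotlib 3.10.9 did the rest. Named genes are those not called throughout, tissue forms with counterparts, the 6 highest and lowest in percentile, the 5 longest and shortest, the 3 lowest p per direction, and the genes of complex II with Cyc1. The genes and lists were chosen with earlier results of these data known. Some genes are not reported here.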

Additional observations from a re-analysis of the deposited data

How the results depend on the processing

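The 86 genes called in all libraries were 83 to 87 with other distances to the gene end (0 bp, 500 bp, 2 kb), in equal-length lists of 36760 peaks or with −log10 q of at least 5, and 86 without any 1 library. By the promoter table alone 75 of 78 were called. The difference between the group means (0.333 genes) was 1.33 at 2 kb and -1 in the narrow lists, and between -0.333 and 0.667 without 1 library. The median percentile (90.8) was 86.8 by fold enrichment and 87.6 in equal-length lists. The count of respiratory genes called throughout 1 group and not at all in the other stayed at 0 with each of these distances, lists and limits. Over all genes, the 8 called in all DTx but 0 untreated libraries became 15 at 2 kb, 5 at 0 bp, 3 by the promoter table and 5 at −log10 q of at least 5. The 1 gene with the opposite pattern became 3 at 500 bp, 6 at 0 bp, 71 in equal-length lists and 0 at −log10 q of at least 5. Leaving out untreated replicates 1, 2 and 3 gave 13, 13 and 100 DTx-only and 12, 15 and 3 untreated-only genes, and leaving out DTx replicates 1, 2 and 3 gave 79, 14 and 17 and 1, 3 and 10. Leaving out a library loosens the criterion.

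Limma called 0 genes in either direction under all 15 alternatives, with 250 to 685 genes at an unadjusted p under 0.05. The replicate block was among them (0 with it added to the layout covariate and 0 in its place). Leaving out either narrow list comes to nearly the same fit as the broad lists alone, so these alternatives are not separate checks. Same-numbered libraries deviated together by correlations of 0.23, 0.05 and 0.19, and untreated replicate 2 correlated best with DTx replicate 3 (0.09), so the numbers were not taken to pair the libraries.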

Other observations

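The subunits of complexes I, III, IV and V that are encoded in mitochondrial DNA lie outside the comparisons above. Each list held 2 peaks on the mitochondrial chromosome, which together covered 11685, 11754 and 11703 bp in untreated and 11725, 11764 and 11783 bp in DTx replicates 1, 2 and 3. Their fold enrichment, per the authors' lists, was between 1.92 and 2.79, while their pileup reached 15109 to 32653, the highest values in the narrow lists. Such peaks are long, nearly alike in all libraries and of low enrichment, and nothing was read from them about the groups.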
